A study of Mus musculus with 11 samples.

Results

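The vacuolar proton pump (V-ATPase) genes Atp6v0a1, Atp6v0a2, Atp6v0d1, Atp6v0d2, Atp6v0b, Atp6v1a, Atp6v1b2, Atp6v1c1, Atp6v1h and Atp6ap1 were described in epididymal white adipose tissue (eWAT). They were chosen by gene symbol, with results of these mice already known, and all 10 were among the 15453 genes measured. Tissue came from male C57BL/6 mice (C57BL/6J in the study's methods) at 16 weeks of age, all fed a high fat diet from 8 weeks of age. The 6 wildtype (WT) mice carried intact Mest (mesoderm specific transcript, an imprinted gene expressed from the paternal allele). The 5 pKO mice had inherited from their father a Mest allele without exon 3. That deletion had been made in the germline with Ella-cre. It was therefore carried by every cell type of the tissue and not by adipocytes alone. The study took these mice from a larger cohort and reports a higher ratio of fat to lean mass in the WT than in the pKO mice. The part of fat mass in the genotype differences was not tested. Serial analysis of gene expression (SAGE) was run on the RNA of each mouse, and counts 1 short tag per transcript, taken next to the last NlaIII site before the poly(A) tail.

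The V-ATPase moves protons across membranes and acidifies lysosomes, endosomes and secretory vesicles. Its cytosolic V1 sector hydrolyses ATP and turns a rotor, and its membrane V0 sector carries the protons. Several subunits are made by more than 1 gene, and the d subunit, which joins the rotor to the membrane ring, is made by Atp6v0d1 in most cells and by Atp6v0d2 in osteoclasts, macrophages and some epithelia. Adipose tissue of obese mice holds many macrophages with enlarged lysosomes, besides adipocytes, vessels and mesothelium. In such bulk tissue, fewer cells of a type and less RNA per cell cannot be told apart.

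The a-subunit and d-subunit genes carry the comparison between the general and the macrophage-linked forms, and the tag predicted for each is shown here because the members of a pair are told apart only by it. Each line gives the last CATG (the NlaIII site, in capitals) and the bases that follow it in the gene's principal protein-coding transcript, 5′ to 3′ on the transcript strand, with positions in GRCm38 and GENCODE annotation.
Atp6v0d2: CATGctatgtagaatagtatgcat
Atp6v0d1: CATGtccctccttagcctaaggac
Atp6v0a1: CATGgtgaccttgttctgaacccc
Atp6v0a2: CATGgaaggactagtctgcctgac
All 4 tags lie in the 3′ untranslated region. The Atp6v0d2 tag is at chr4:19877148-19877171 on the minus strand, inside a gene that spans chr4:19876841-19922605. The Atp6v0d1 tag is at chr8:105524608-105524631 on the minus strand, in the gene at chr8:105524465-105566047. Tags of Atp6v0a1 and Atp6v0a2 are on plus strands, at chr11:101063557-101063580 and chr5:124724377-124724400. None of the tags of the 10 genes was the last tag of a transcript of another annotated gene. The protein-coding transcripts of Atp6v0d2 end in 2 different tags and those of Atp6v0a1 in 3, and how the authors combined the tags of a gene is not given in the sources used here.

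Libraries held 9659740 to 14825727 tags, with medians of 12592059 in WT and 12621798 in pKO mice. Mest lay between 20756 and 27897 normalized tags for WT and between 793 and 2275 for pKO mice, without overlap, although the tag predicted from its principal transcript lies in the last of 12 exons and does not read the deletion of exon 3 itself. Of the tissue's own markers Adipoq, the adipocyte hormone adiponectin, averaged 65204 normalized tags in WT, while 4 of 12 epididymal epithelium markers were in the tables and summed to 56.2 to 208 in single mice. Over the 9906 genes averaging 50 or more normalized tags in a genotype, limma called 4 genes lower and 1 higher in pKO at an adjusted p of at most 0.1. Without pKO replicate 2 the calls were 65 lower and 26 higher, so values that rest on this mouse are also given without it.

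Atp6v0d2 had the largest genotype difference of the 10 genes, at 37.2% of the WT level in pKO mice, while the means of its paralogue Atp6v0d1 were nearly equal. In WT mice Atp6v0d2 lay between 213 and 394 normalized tags, with a median of 282. The pKO mice had 42.1, 156, 83.4, 156 and 101 normalized tags in replicates 1 to 5. Every pKO mouse was below every WT mouse, and pKO replicate 1 was lowest. The WT mean was 290 ± 64.4 (SD, n = 6) and the pKO mean 108 ± 49.0 (SD, n = 5), or 37.2% of the WT level and a log2 difference of -1.54 (standard error 0.30) on the log2(normalized tags + 1) scale. Leaving out any 1 mouse kept the log2 difference between -1.70 and -1.24. The gene was chosen for this contrast, so the values are a description and nothing is read from the p-values given for it below.

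Atp6v0d1, the d subunit of most tissues, varied widely within both genotypes. Its WT values ran from 146 to 610 normalized tags with a median of 267, and the pKO mice had 252, 432, 231, 465 and 232. The pKO values all fell inside the WT range. The means were 320 ± 180 (SD, n = 6) and 322 ± 116 (SD, n = 5), a log2 difference of 0.13 (standard error 0.35) whose sign turned in 4 of 23 alternative settings. The spread among WT mice was a coefficient of variation of 56.4%, against 5.47% from counting error alone at this gene's depth, and it was the widest of the 10 genes, of which Atp6v0a1 was tightest at 5.63%.

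**Figure D1:**
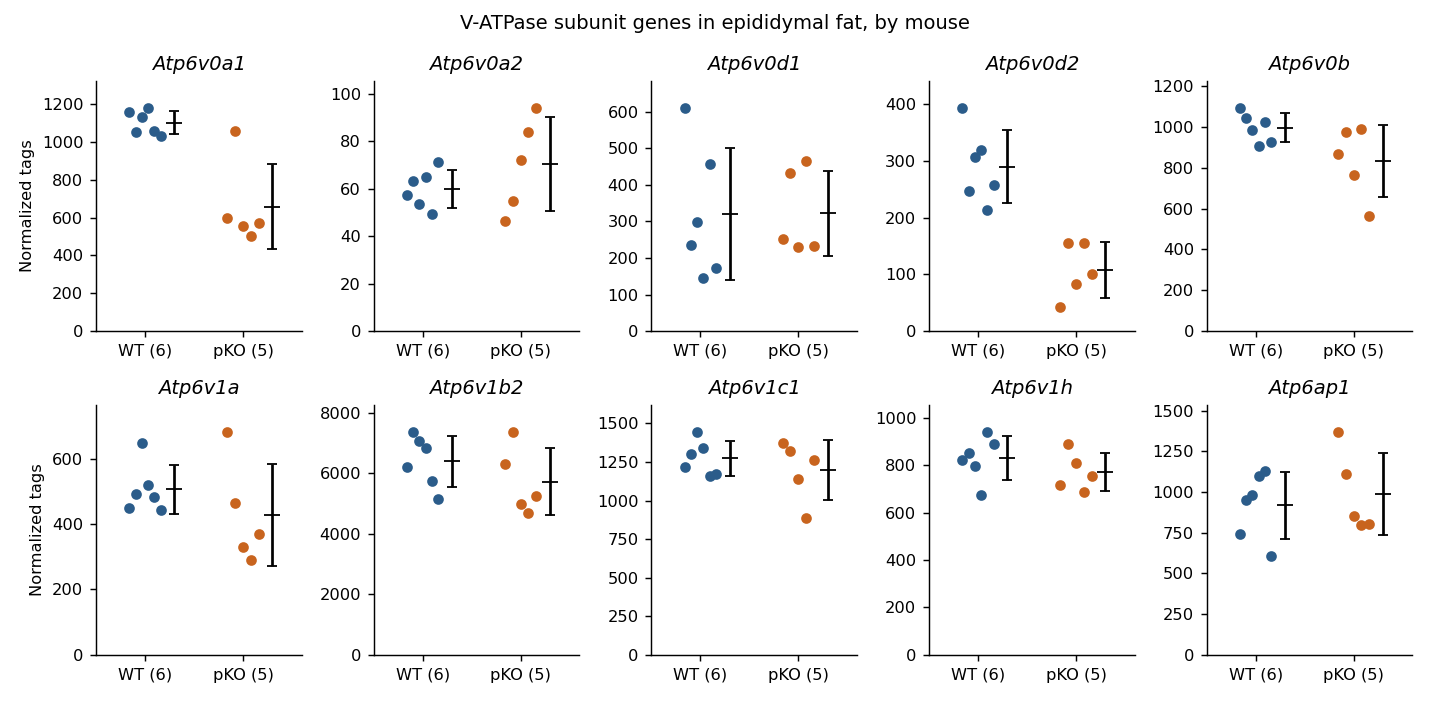
Normalized tags (vertical axes, each from 0) of the 10 V-ATPase genes in each WT (blue) and pKO (orange) mouse, in replicate order from left to right, with the mean and SD at the right of each group. The genotypes do not overlap in Atp6v0d2 (WT 213 to 394, pKO 42.1 to 156), and 1 pKO mouse lies among the WT mice in Atp6v0a1.

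Together these genes set the make-up of the d subunit's mRNA. Atp6v0d2 tags were 50.3% ± 13.4 (SD, n = 6) of the tags of both d genes in WT mice, from 31.8% to 68.7%. In pKO mice the share was 24.6% ± 6.05 (SD, n = 5), from 14.3% to 30.4%. The ranges did not overlap, although the gap between them was small beside the spread among WT mice. Taken from the summed values of each genotype, the shares were 47.5% and 25.1%. In WT replicates 2, 3, 4 and 6 the macrophage-linked gene gave more tags than the general one, and in no pKO mouse did it do so. The counts were close in WT replicate 2 (241 against 230 tags) and WT replicate 3 (367 against 357).

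**Figure D2:**
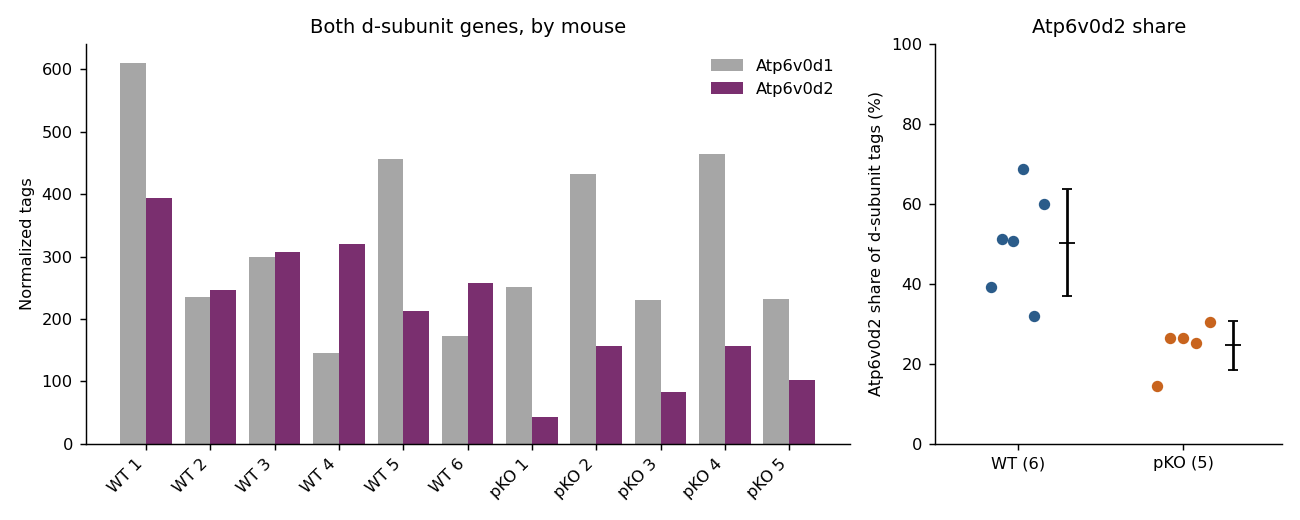
Left, normalized tags of Atp6v0d1 (grey) and Atp6v0d2 (purple) in each mouse. Right, Atp6v0d2 as a percentage of the tags of both genes, with the mean and SD per genotype: 31.8% to 68.7% in WT and 14.3% to 30.4% in pKO mice.

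Among the a subunits, which form the channel for protons in V0 and direct the pump to its membrane, Atp6v0a1 was lower in 4 of 5 pKO mice. WT mice were close together, between 1031 and 1179 normalized tags with a median of 1095. The pKO mice had 598, 1054, 556, 501 and 573. Replicate 2 lay within the WT range, and the other 4 pKO mice lay far below it. The means were 1101 ± 62.0 (SD, n = 6) and 657 ± 225 (SD, n = 5), which is 59.6% of the WT level and a log2 difference of -0.80 (standard error 0.17). Without pKO replicate 2 the log2 difference was -0.98. In that same mouse Atp6v0d2 was at 156, below its WT range, but with replicate 4 the highest of the pKO mice.

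Atp6v0a2, linked to the Golgi and endosomes, was 1 of the least abundant subunits and had a positive log2 difference within its error. Its WT values lay between 49.2 and 71.2 normalized tags with a median of 60.5, and the pKO mice had 46.4, 55.0, 72.2, 83.8 and 94.1. The ranges overlapped, and the log2 difference was 0.19 (standard error 0.20). The other a-subunit genes measured were Tcirg1, the form best known from the osteoclast pump, which averaged 751 ± 234 for WT (SD, n = 6) and 650 ± 135 for pKO (SD, n = 5), and Atp6v0a4, known from kidney and epididymis, with 58.7 ± 11.2 and 85.6 ± 45.9. Of the tags of all 4 genes, Atp6v0a1 made up 56.5% ± 7.24 for WT (SD, n = 6) against 44.2% ± 5.43 for pKO (SD, n = 5). Tcirg1 made up 37.4% ± 8.35 and 44.7% ± 4.99. The shares of both genes overlapped between genotypes.

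Atp6v0b, which encodes a proteolipid of the rotating membrane ring, was the remaining V0 gene. WT values ran from 905 to 1093 normalized tags with a median of 1004, and the pKO mice had 864, 975, 765, 991 and 562. Replicates 2 and 4 were within the WT range and replicate 5 was lowest. The log2 difference was -0.29 (standard error 0.15), and it was -0.15 without pKO replicate 5. Under 3 of 23 alternatives (total-count scaling, without pKO replicate 2 and without pKO replicate 4) it was lower at the unadjusted threshold of 0.05, with log2 differences of -0.32, -0.35 and -0.36.

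The V1 members, which form the part of the pump that uses ATP, overlapped between genotypes in every gene. Atp6v1a, the catalytic subunit, lay between 443 and 649 normalized tags in WT (median 487), and at 682, 464, 331, 289 and 369 in pKO mice. The highest value of all was that of pKO replicate 1, while replicates 3, 4 and 5 were below the WT range. Its log2 difference was -0.30 (standard error 0.20), and it became -0.49 without pKO replicate 1, where it was lower at the unadjusted threshold, and -0.18 without pKO replicate 4. Atp6v1b2, the partner of the catalytic subunit and the gene with the highest WT mean of the 22 V-ATPase genes in the tables, lay between 5150 and 7377 in WT (median 6532) and between 4672 and 7351 in pKO mice. Atp6v1c1, which helps to hold V1 and V0 together, ran from 1158 to 1447 in WT and from 887 to 1371 in pKO. Atp6v1h, a regulatory subunit needed for activity, ran from 674 to 942 in WT and from 687 to 888 in pKO. Their log2 differences were -0.17, -0.10 and -0.10, with standard errors of 0.15, 0.13 and 0.12. Without pKO replicate 2 the difference of Atp6v1b2 was -0.27, and without pKO replicate 4 it was -0.10. Atp6ap1, an accessory glycoprotein that takes part in assembly and targeting, ran from 608 to 1129 in WT and from 798 to 1371 in pKO, a log2 difference of 0.11 (standard error 0.19) that turned negative in 3 of 23 alternative settings. The sign of Atp6v1c1 turned in 1 of 23.

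Counted together, 2 of the 10 genes, Atp6v0a1 and Atp6v0d2, were at an unadjusted p of at most 0.05 in limma and lower in pKO, beside 5.77% of all 9906 genes, and none was higher, beside 4.85%. None was at an adjusted p of at most 0.1 in either direction in limma, beside 0.0404% lower and 0.0101% higher. The study's own analysis of these libraries did list Atp6v0d2 and Atp6v0a1 as higher in WT at its adjusted threshold of 0.1. Its qRT-PCR of Atp6v0d2 gave the same direction. In 1 of 10, Atp6v0d2, every pKO mouse was below every WT mouse, beside 0.717%. Both Atp6v0d2 and Atp6v0a1 were at an adjusted p of at most 0.1 in 2 of 23 alternatives, with DESeq2 on recovered tags (adjusted p = 0.0014 and 0.022) and in limma without pKO replicate 2 (adjusted p = 0.049 and 0.0038). The genes were chosen with this contrast known, so nothing is read from these counts or values. The log2 difference was negative in 7 and positive in 3, with a median of -0.14, against -0.00 over all 15453 genes.

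**Figure D3:**
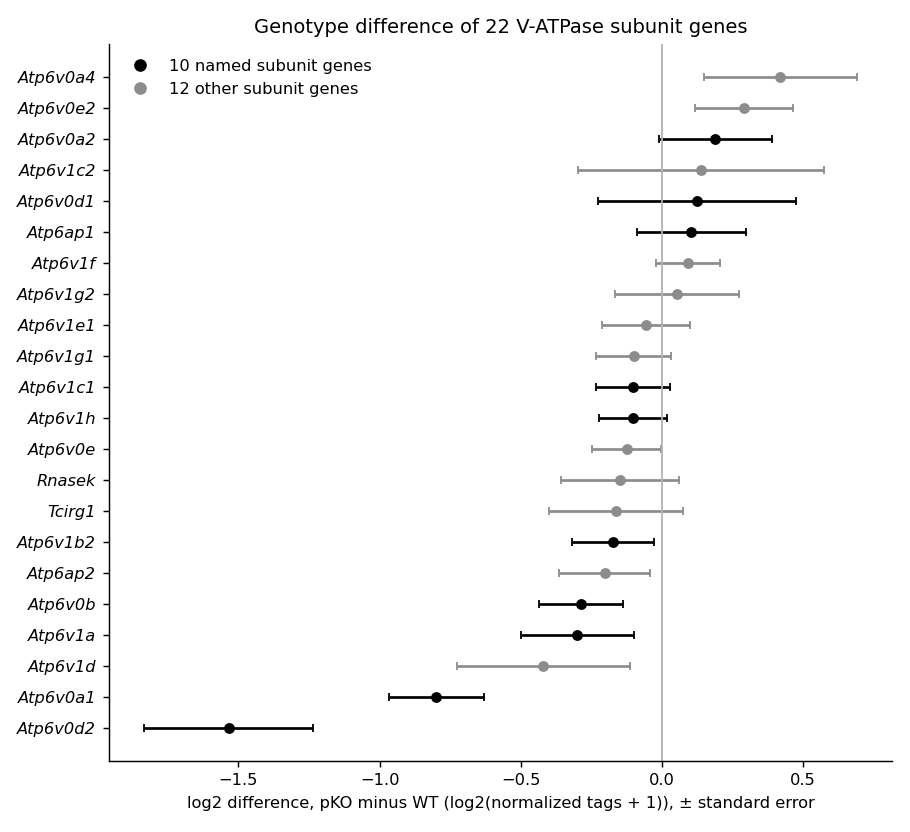
Log2 difference between pKO and WT (horizontal axis, with standard error) for the 10 named genes (black) and 12 other V-ATPase genes (grey). Atp6v0d2 at -1.54 and Atp6v0a1 at -0.80 lie apart from the others, which run from -0.42 to 0.42.

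The other V-ATPase genes in the tables were Tcirg1, Atp6v0a4, Atp6v0e, Atp6v0e2, Atp6v1c2, Atp6v1d, Atp6v1e1, Atp6v1f, Atp6v1g1, Atp6v1g2, Atp6ap2 and Rnasek, and 10 of these 12 had a mean of at least 50. Atp6v0c, which encodes the main proteolipid of the membrane ring, and Atp6v1b1, Atp6v1e2 and Atp6v1g3 were not analysed here. None passed either threshold, by limma (lowest adjusted p 0.62, lowest unadjusted p 0.11), by voom, by edgeR's quasi-likelihood test or by DESeq2. At the unadjusted threshold 10.6% of all genes passed in either direction. Their log2 differences ran from -0.42 in Atp6v1d to 0.42 in Atp6v0a4 with a median of -0.08, 7 negative and 5 positive. The standard errors of 0.11 to 0.44 set the size of a difference that these mice could show. The tag of Atp6v1d is shared with Gm5103, so its reads are uncertain.

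Single mice changed 2 of these results. Without pKO replicate 2, Atp6v0e2, a small membrane subunit, reached an unadjusted p of 0.044 at a log2 difference of 0.39 (adjusted p = 0.37, limma). Without pKO replicate 5, Atp6v0a4 reached 0.040 at 0.60 (adjusted p = 0.53, limma).

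Summed over the 22 genes measured, which leave out Atp6v0c, the subunit tags in pKO mice were 93.7% of the WT level, at 31758 ± 3626 normalized tags (SD, n = 5) against 33895 ± 1829 (SD, n = 6). Without Atp6v0a1 and Atp6v0d2 the sum was 95.4%. The 9 V0 genes measured summed to 88.6% and the 10 V1 genes to 95.1% of WT. The summed levels overlapped between genotypes in all 4 cases.

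**Figure D4:**
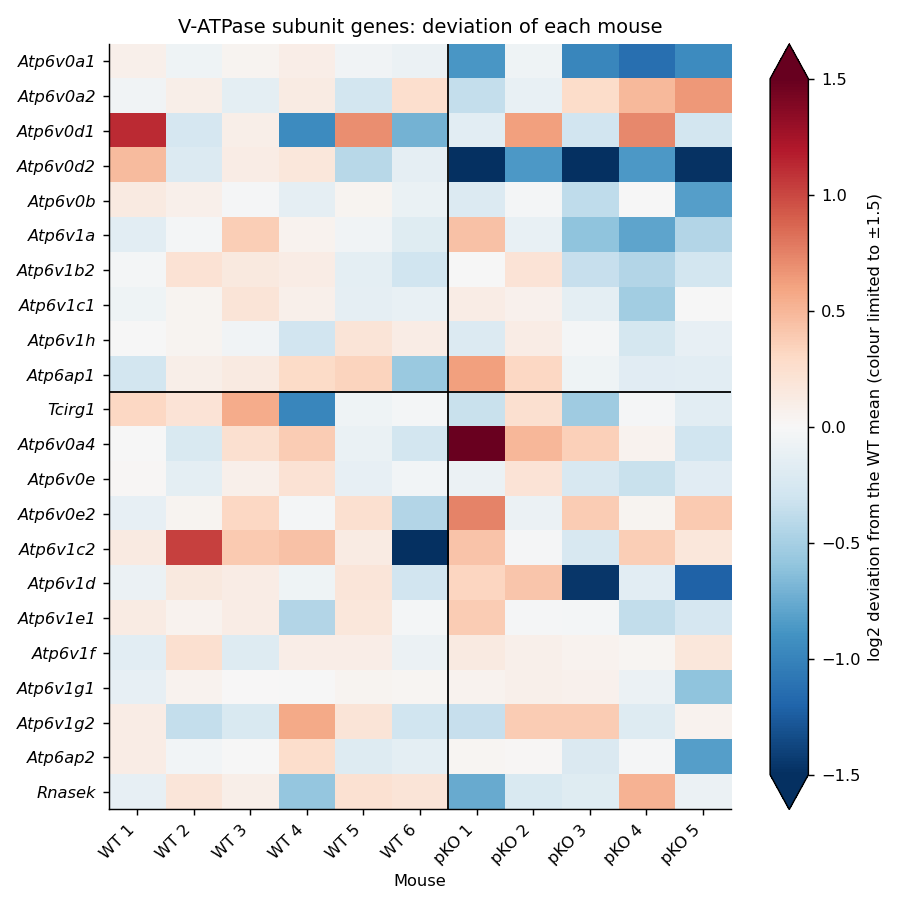
Log2 deviation of each mouse (columns) from the WT mean for the 10 named genes (above the line) and 12 other V-ATPase genes (below), with red higher and blue lower. Atp6v0d2 is blue in all 5 pKO mice and Atp6v0a1 in all but replicate 2, where its deviation was -0.06.

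Within a mouse, Atp6v0d2 could also be set against each of the other subunits, which removes what moves all of them. Relative to the 9 other named genes its pKO mean was lower by between 0.74 on the log2 scale (against Atp6v0a1) and 1.72 (against Atp6v0a2). The pKO ratios lay wholly below the WT ratios for Atp6v0a2, Atp6v0d1, Atp6v0b, Atp6v1c1 and none of the remaining 5 named genes. They did so for 12 of all 21 other subunits. Atp6v0d2 was chosen for this contrast and is in every ratio, so these counts are a description and add no support.

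Since SAGE counts 1 tag per transcript, levels of different genes can be set side by side without a correction for length, apart from differences in how well each tag is captured. In WT mice the V1 genes Atp6v1b2, Atp6v1e1, Atp6v1g1 and Atp6v1f led, from 6399 ± 847 to 4165 ± 501 normalized tags (SD, n = 6). The ranges of neighbours in the order overlapped except below Atp6v1f and below Atp6v0d2. The next 12 genes, Atp6ap2 to Atp6v1a, ran from 2013 to 506. Both d genes came next, and Atp6v0a2, Atp6v0a4, Atp6v1g2 and Atp6v1c2 were at 60.0 or less.

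Of 21 assembly factors and partners of the pump, which include the regulators of lysosomal genes Tfeb, Tfe3, Mitf and Tfec, 1 was lower at the unadjusted threshold and none was higher, beside 5.77% and 4.85% of all genes, so the share of the list was no larger than that of all genes. Mitf, a transcription factor of osteoclasts and macrophages, was at 276 ± 17.6 (SD, n = 6) and 214 ± 34.5 (SD, n = 5), a log2 difference of -0.38 (standard error 0.13, adjusted p = 0.41, limma), and so failed the correction. Tfeb was at 124 in WT and 109 in pKO (log2 difference -0.20, adjusted p = 0.74, limma). Tfe3 was at 130 and 125 (0.03, adjusted p = 0.98, limma), and Tfec at 5.60 and 6.50, under the minimum of 50. The median of the list was 0.03, near that of all genes.

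Lysosomal enzymes and membrane proteins, the machinery that depends on the acid made by the pump, were lower in more of the list. The log2 difference was negative in 20 of 22 genes, with a median of -0.24 against -0.00 over all genes. Of the 21 with a mean of at least 50, 6 were lower at the unadjusted threshold, beside 5.77% of all genes. These were the cathepsins Ctsb, Ctss and Ctsz, alpha-galactosidase Gla, the acid lipase Lipa and the cholesterol carrier Npc2. None passed at an adjusted p of at most 0.1 in limma. Gla came nearest, from 191 ± 31.0 (SD, n = 6) to 93.9 ± 22.9 (SD, n = 5), a log2 difference of -1.04 (standard error 0.18, adjusted p = 0.12, limma). The study's own analysis of these libraries did list Gla as higher in WT at its adjusted threshold of 0.1. Npc2 went from 8785 ± 989 (SD, n = 6) to 5475 ± 1398 (SD, n = 5), a log2 difference of -0.71 (standard error 0.16, adjusted p = 0.26, limma). Summed over the 22 genes, WT mice lay between 163776 and 177039 normalized tags and pKO mice between 123754 and 159059. The ranges of this sum did not overlap. Taken singly, 2 of the 22 genes, Gla and Npc2, had every pKO mouse below every WT mouse, beside 0.717% of all genes. The ranges of the others, Ctsd among them, overlapped. The cathepsins Ctsd, Ctsb and Ctsl, at WT means of 69264, 31086 and 21746, carried most of the sum. The lists were chosen with results of these mice known, so these counts are a description.

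Macrophage markers were lower in part of their list. Of 17 markers, 14 had a negative log2 difference (median -0.24). Of the 16 with a mean of at least 50, 5 were lower at the unadjusted threshold, beside 5.77% of all genes. These were Itgam, Itgax, Cd14, C1qb and Ms4a7. None passed at an adjusted p of at most 0.1 (lowest adjusted p 0.37, limma). By qRT-PCR of eWAT from its larger cohort, the study reports lower Itgam and Itgax in pKO than in WT mice. It reports no genotype difference for Emr1, Cd68 and Cd163. Summed, the 17 lay between 13074 and 18087 normalized tags for WT and between 11109 and 15582 for pKO mice, with overlap. Emr1, which encodes the macrophage antigen F4/80, was at 856 ± 151 (SD, n = 6) and 865 ± 271 (SD, n = 5). Of 12 genes of lipid-laden and multinucleate macrophages, 9 had the mean of at least 50 that a call needs. Of these, 4 were lower at the unadjusted threshold, namely Trem2, Gpnmb, Spp1 and Lgals3, beside 5.77% of all genes. None passed at the adjusted one (lowest adjusted p 0.28, limma). The sum of the 12 ran from 10768 to 22299 in WT and from 10972 to 17207 in pKO. Dcstamp and Ocstamp, needed for cell fusion, averaged 16.1 and 11.4 in WT. The part of these cells in the Atp6v0d2 difference was not tested.

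Markers of other cells of the tissue were compared in the same way. All 5 mesothelial markers had a positive log2 difference (median 0.57), and Msln, Krt19 and Upk1b were higher at the unadjusted threshold, beside 4.85% of all genes, with none at the adjusted one (lowest adjusted p 0.25, limma). Krt19, a keratin of the mesothelium, was at 374 ± 81.3 (SD, n = 6) and 610 ± 77.6 (SD, n = 5). It was the only 1 of the 5 with every pKO mouse above every WT mouse, beside 0.717% of all genes. The mesothelial sum lay between 1125 and 1552 normalized tags for WT and between 1362 and 2629 for pKO mice. At the unadjusted threshold Pnpla2 of 10 adipocyte markers, Kdr of 8 endothelial and stromal markers and Gpx5 of 4 epididymal markers were higher. Gpx5 was the only epididymal marker with the mean of at least 50 that a call needs. Of 7 lymphocyte markers only Cd79a had such a mean, and it did not pass. The part of these cells in the differences of the pump and lysosomal genes was not tested.

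A score of the macrophage level (the mean of the 17 markers' log2 values, each centred over all mice) lay between -0.26 and 0.33 in WT and between -0.47 and 0.08 in pKO mice. In pKO replicates 2 and 4 the score was 0.08, above that of WT replicates 2 and 5. Atp6v0d2 was at 156 in both pKO mice and at 247 and 213 in those WT mice, and pKO replicates 1 and 3, with scores of -0.41 and -0.47, lay below every WT score. Averaged in the same way, the 12 genes of lipid-laden and multinucleate macrophages gave -0.07 to 0.45 in WT mice. There pKO replicate 2 was at 0.26, inside that range, and pKO replicate 4 at -0.37, below it. How far the macrophage level accounts for the Atp6v0d2 difference was not tested.

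Within the 6 WT mice alone, which leaves the genotype out, the relation of Atp6v0d2 to the score had a Pearson's r of 0.80 (exact permutation p = 0.051, two-sided) and Spearman's rho of 0.77 (exact permutation p = 0.10). Over the 10 relations computed, 1 for each named gene, the adjusted p was 0.51 for both, so no relation passed. Without WT replicates 2 and 5, the mice farthest from the median score, r was 0.31, and so the relation rests on them. The other 9 genes had r between -0.59 (Atp6ap1) and 0.49 (Atp6v0a2). In Atp6v0d1 r was -0.21, and in Atp6v0a1 it was 0.49. The smallest p that 6 mice allow is 0.0028.

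**Figure D5:**
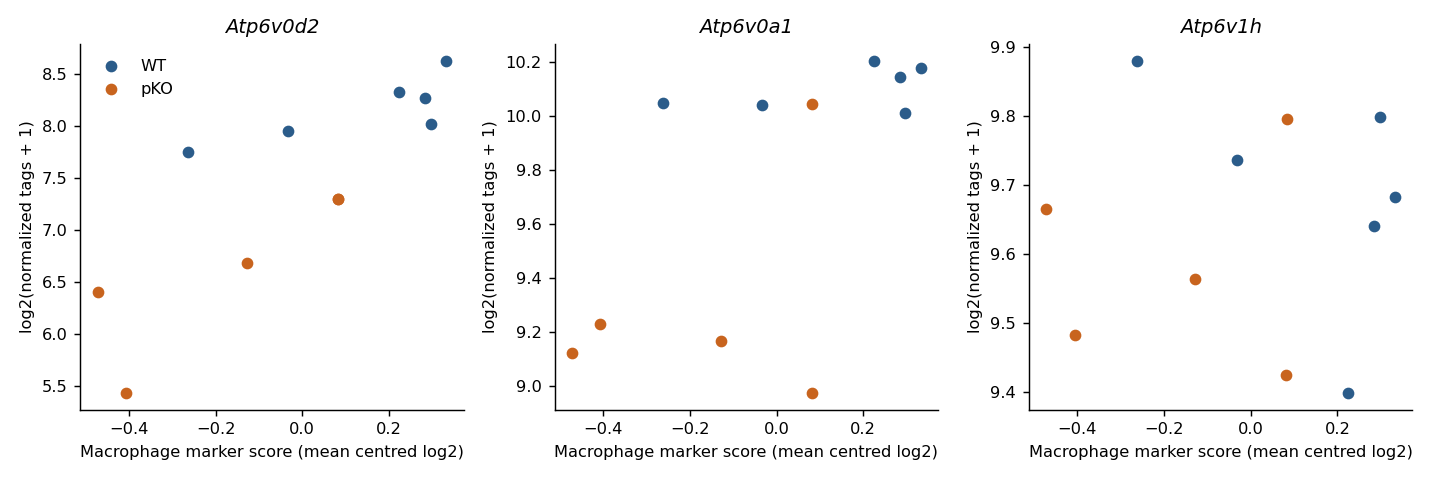
Macrophage marker score (horizontal axis) against log2(normalized tags + 1) of Atp6v0d2, Atp6v0a1 and Atp6v1h in WT (blue) and pKO (orange) mice; the vertical axes do not start at 0. Scores of pKO replicates 1 and 3 lie below those of all WT mice. Both pKO replicates 2 and 4 have a score of 0.08, and their points lie on top of each other only for Atp6v0d2.

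Likeness to other genes was measured as Pearson's r of the log2 values over the 11 mice after each genotype's mean was taken out, over 9726 genes, as a description. The genes most like Atp6v0d2 were Ccl7 (r = 0.95), a chemokine for monocytes, Adssl1 (0.93), Spp1 (0.93), which encodes osteopontin, Dock2 (0.93), a guanine exchange factor of leukocytes, Prss23 (0.92) and Lyz1 (0.92), a lysozyme. Those most like Atp6v0a1 were Bzw1 (0.96), Eif3m (0.95), Postn (0.95), Deptor (0.94), Tmem218 (0.94) and Hmox1 (0.94). The 2 groups of genes share no member. Lists this short, drawn from 9726 genes, would seldom share a member by chance, so nothing is read from this. Between Atp6v0d2 and Atp6v0a1 r was 0.34, rank 2147 among the genes compared with Atp6v0d2. The points share their libraries. The largest deviation was that of pKO replicate 2 for Atp6v0a1 and that of pKO replicate 1 for Atp6v0d2. How far these r values rest on those mice was not tested.

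Promoters were read because lysosomal genes are known to share the E-box CACGTG, bound by the Tfeb family. RefSeq windows (GRCm38.p6, 250 bases before to 50 after the start) were at hand for Atp6v0a1, Atp6v0d1, Atp6v0b, Atp6v1a and Atp6ap1. CACGTG was found in 3 of these 5, in 4 of the 15 V-ATPase genes with a window (the 3 and Atp6v0e), in 11.1% of 10799 genes in the tables with a window and in 7.15% of all 32841 promoters. The stretches around it are shown with the motif in capitals, 5′ to 3′ on the gene's strand.
Atp6v0b: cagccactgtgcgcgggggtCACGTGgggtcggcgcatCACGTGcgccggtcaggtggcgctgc
Atp6v0d1: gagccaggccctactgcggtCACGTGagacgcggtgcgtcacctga
Atp6v1a: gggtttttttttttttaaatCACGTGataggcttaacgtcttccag
They lie on minus strands at chr4:117887322-117887385, chr8:105566042-105566087 and chr16:44139365-44139410. The 3 genes with CACGTG had log2 differences of -0.29, 0.13 and -0.30. Atp6v0a1 and Atp6ap1, without it in their windows, had -0.80 and 0.11. Whether the motif bears on the genotype differences was not tested. The longer palindrome TCACGTGA, which contains CACGTG, was found in Atp6v0d1, Atp6v1a and Atp6v0e, in 1.98% of those genes and in 0.974% of promoters. GAGGAAGT, a form of the PU.1 motif of macrophages, and TGAGTCA, the AP-1 motif, were searched on both strands like the others. They were in 0 of the 5, beside 3.8% and 4.8% of the 10799 genes and 3.20% and 5.20% of promoters. With shares this small and 5 genes, nothing is read from that count. Such matches are letters in a window and not shown sites, and Atp6v0d2, Atp6v0a2, Atp6v1b2, Atp6v1c1 and Atp6v1h were not analysed for them.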

How the data were processed

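eWAT RNA of 6 WT and 5 pKO mice was profiled by SOLiD SAGE, 1 library per mouse. The authors aligned tags with Applied Biosystems software that they had adapted, and the processing notes name edgeR 3.2.3 and build mm10; the annotation is not given in the sources used here. The deposited values (unit signal) are tag counts divided by a library's size factor: 100% of them were whole multiples (tolerance 0.01) of 1 tag, worth 0.836 to 1.19, and tags were recovered on that basis. The authors' methods for combining tags per gene are not given.

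Genotypes were taken from the labels. Log2(value + 1) of all 15453 genes was compared with limma 3.58.1 (trended variance, two-sided, Benjamini-Hochberg adjustment), pKO minus WT, which understates changes of low genes. Calls used the study's thresholds, 0.1 for adjusted and 0.05 for unadjusted p, and its minimum mean of 50 in a genotype. edgeR 4.0.16, DESeq2 1.42.0 and voom were run on recovered tags. No same-genotype pair of libraries agreed within sampling noise (lowest chi-square per degree of freedom 17.7 of 25 pairs), so each counted as 1 mouse. The fit was tested on simulated data. The members and gene lists were chosen with earlier results of these data known. Named in full were the 10 members, Mest, other subunits and lysosomal or partner genes that passed a threshold, Tfeb, Tfe3, Mitf and Tfec, and the 6 genes most like Atp6v0d2 and Atp6v0a1. Adipoq, Emr1, Dcstamp, Ocstamp, Krt19, Ctsd, Ctsl and the markers named by threshold, and subunits named for their role, range or level, were added after their values were seen.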

Additional observations from a re-analysis of the deposited data

Results flagged for a closer look

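In 4 of 48 groups of V-ATPase values (22 subunit genes, the Atp6v0d2 share and the macrophage score, each in WT and in pKO mice) the highest or lowest mouse stood apart from the others by Dixon's criterion. Chance alone gives 2.4 such groups. Atp6v0a1 was at 1054 normalized tags in pKO replicate 2, and the other pKO mice were between 501 and 598. Atp6v1a was at 649 in WT replicate 3, above 443 to 520 in the other WT mice. Atp6v1e1, a stalk subunit of V1, was at 3572 in WT replicate 4, below 4761 to 5455 in the rest. Atp6v1g1, another stalk subunit, was at 2872 in pKO replicate 5, below 4104 to 4584 in the others.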

How the results depend on the processing

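Signs of the log2 difference were the same in all 23 alternatives for Atp6v0d2, Atp6v0a1, Atp6v0a2, Atp6v0b, Atp6v1a, Atp6v1b2 and Atp6v1h. Over all genes, 9 were lower and 2 higher at the adjusted threshold when at least 10 tags were required in every library, and 63 and 58 with DESeq2, while edgeR gave 4 and 1; the cause was not tested. At the unadjusted threshold total-count scaling gave 737 lower and 330 higher, against 572 and 480. Leaving out each mouse gave 2 to 65 lower and 1 to 26 higher at the adjusted threshold, both highest without pKO replicate 2, and 415 to 844 lower and 328 to 639 higher at the unadjusted one. Of the 12 other subunits 0 to 1 then passed the unadjusted threshold. The Atp6v0d2 share stayed at 46.6% to 53.9% in WT and 23.1% to 27.1% in pKO mice. Replicate numbers do not pair the mice, as the mean correlation of same-numbered mice was -0.02 (lowest -0.093, highest 0.14). A fit with the replicate block dropped WT replicate 6, which has no partner, and called 1 gene lower and 0 higher at the adjusted threshold and 491 and 387 at the unadjusted one. Depth limits Atp6v0a2, with a counting error of 12.3%, more than the other members.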
